A study of Mus musculus with 34 samples.

Results

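DNA replication and S-phase genes were followed in 34 liver arrays of a mouse model of hepatic fibrosis and tumours. The set was a list of 52 gene names, chosen by function: the factors that license and fire replication origins, the polymerases and their helpers at the fork, the enzymes that supply nucleotides, and the proteins that copy chromatin marks or guard the S phase. Of the 52, 51 had a probe set that carried their symbol alone, and 1, Chaf1a, had none. Each gene was read from its probe set of highest mean signal. The 48 with enough signal were tested among 13099 genes, and Cdc6, Tyms and Exo1 lay under the filter on low signals.

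The arrays fell into 7 groups, with 1 array per sample. Wild-type livers came from C57/B6 mice at week 20 (n = 5) and week 48 (n = 4). The strain labelled Pdgf-c Tg, which carries a transgene for platelet-derived growth factor C, gave livers on the basal diet at week 20 (n = 5) and week 48 (n = 5), and 5 tumours at week 48. The same strain also received peretinoin, a synthetic retinoid, at 0.06% of the diet from week 4, when the mice were weaned, and its livers were taken at week 20 (n = 5) and week 48 (n = 5). The study's design text ties week 20 to fibrosis and week 48 to tumours. The promoter of the transgene, the sex of the mice and whether a tumour and a transgenic liver came from 1 mouse are not given in the sources used here. The labels do not state that every array is a separate animal, so p-values measure the spread between these samples.

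DNA is copied once per cell cycle. Before S phase the origin recognition complex, Cdc6 and Cdt1 load the Mcm2 to Mcm7 helicase onto origins, and geminin (Gmnn) binds Cdt1 so that loading is not repeated. Cdc45, the GINS complex, Mcm10 and Topbp1 then turn the helicase on, and the fork recruits polymerases alpha, delta and epsilon with the clamp Pcna, its loader (Rfc) and the single-strand binding protein RPA. Many of these genes are transcribed by E2F factors once the retinoblastoma proteins let go of them. Hepatocytes of the adult mouse rarely divide but can re-enter the cycle after injury, and dividing stromal and immune cells also make these RNAs.

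The promoters of the members were read because E2F factors are known to act there. RefSeq start-site windows of 300 bases (250 before to 50 after the start site, GRCm38.p6) were matched for 43 of the 52 members. Rfc2, Prim2, Mcm4, Gins1, Pole, Gmnn, Gins2, Gins4 and Exo1 were not analysed here. The E2F-type motif was searched on both strands as TTTCCCGC, TTTCGCGC, TTTGCCGC or TTTGGCGC. It lay in the window of 17 of the 43 members (39.5%), against 704 of all 27025 genes with a window (2.6%). Of the 9 licensing genes with a window 7 held it, whereas none of the 3 RPA genes or the 5 nucleotide supply genes did. The members' windows were also richer in G and C, with a median of 60.7% against 52.7% over all windows. Among windows with at least 60% G and C, 10 of 27 of the members' (37%) and 416 of 9690 in all (4.29%) held the motif. The 6 stretches below belong to the members with a match and the smallest p in any comparison, and capitals mark the matches. Each runs 5′ to 3′ along the transcribed strand.
Cdt1: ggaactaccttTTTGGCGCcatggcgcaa
Rfc3: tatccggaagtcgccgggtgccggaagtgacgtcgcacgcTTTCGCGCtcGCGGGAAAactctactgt
Dnmt1: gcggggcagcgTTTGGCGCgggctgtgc
Mcm5: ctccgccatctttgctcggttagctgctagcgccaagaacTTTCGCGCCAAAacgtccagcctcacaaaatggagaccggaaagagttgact
Mcm6: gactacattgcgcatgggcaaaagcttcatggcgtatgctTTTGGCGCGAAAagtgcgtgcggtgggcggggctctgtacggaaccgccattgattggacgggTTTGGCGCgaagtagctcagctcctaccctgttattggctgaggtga
Pola1: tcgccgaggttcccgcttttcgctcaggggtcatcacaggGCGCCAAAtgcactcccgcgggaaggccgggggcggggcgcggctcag
The Cdt1 stretch is chr8:122568036-122568064 (plus strand) and the Mcm5 stretch chr8:75109316-75109407 (plus strand). The others lie on the minus strand, at chr5:151651191-151651258 for Rfc3, chr9:20952574-20952601 for Dnmt1, chr1:128359706-128359855 for Mcm6 and chrX:93632246-93632333 for Pola1. Cdt1 and Dnmt1 have their match 32 and 33 bases past the start site, and Dnmt1 has another upstream that is not shown. Rfc3 has 2 matches on opposite strands at the start site itself. In Mcm5 and in the upstream match of Mcm6, 2 matches on opposite strands overlap by 4 bases, so that 1 run of 12 bases counts as both. A match is a run of letters and was not tested for binding.

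**Figure D1:**
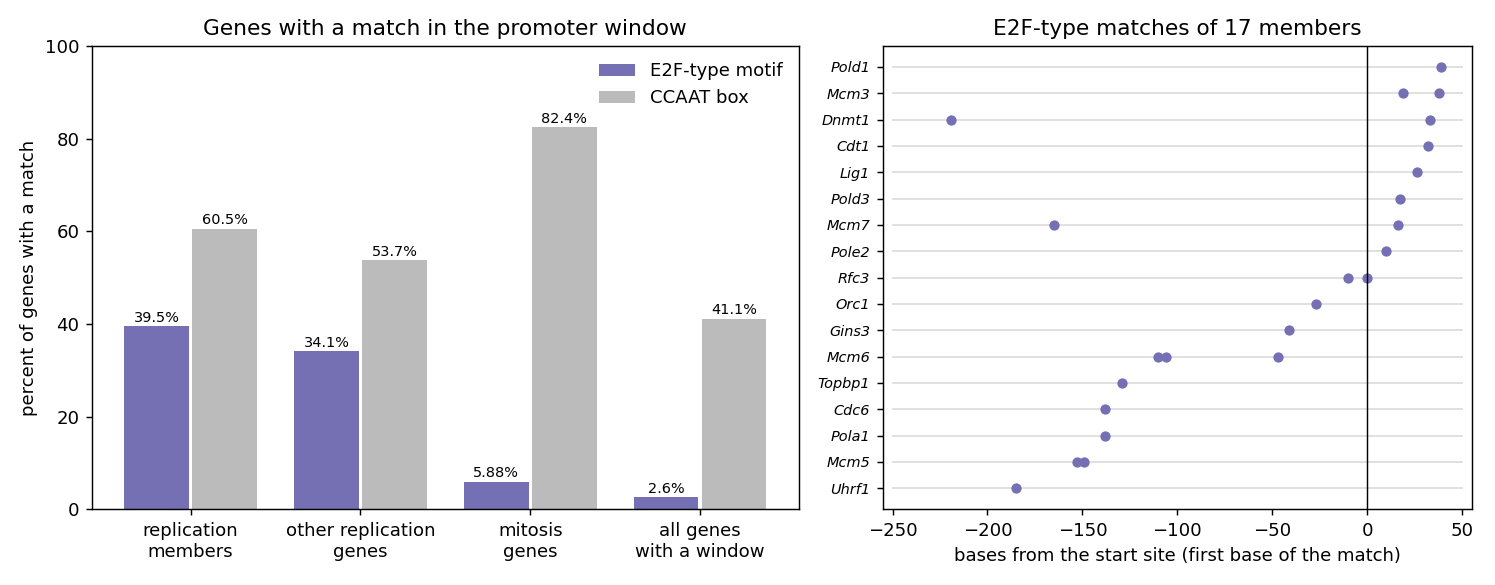
Left, percent of genes whose RefSeq window holds an E2F-type motif (purple) or a CCAAT box (grey), for the members, other replication genes, mitosis genes and all genes. Right, position of every E2F-type match in the 17 members that hold one, in bases from the start site. The E2F-type motif is in 39.5% of the members and 2.6% of all genes, and the mitosis genes hold it in 5.88% but the CCAAT box in 82.4%.

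The CCAAT box (CCAAT on either strand), a common promoter element of cell cycle genes, gave a smaller difference. It was found in 26 of the 43 members (60.5%) and in 41.1% of all genes. Other replication genes, a list of 51 names outside the members, were like the members, with the E2F-type motif in 14 of 41. Mitosis genes differed in this respect: 1 of 17 held the E2F-type motif and 14 of 17 the CCAAT box.

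The authors' scaling fixes the overall level of every array, and the median signal was 71.3 to 95.5. It was 82.6 to 95.5 in transgenic liver at week 20, 77.7 to 82.4 at week 48 and 71.3 to 77.3 in peretinoin-fed liver at week 48. No 2 of these groups overlapped. The comparisons of age in transgenic liver and of peretinoin at week 48 are each drawn between 2 of them. Liver identity held throughout: the mean of the 7 tested hepatocyte markers lay between 14.12 and 14.79 on the log2 scale on every array, tumours included. On 6 arrays transcripts of another tissue stood at least 3 log2 units above the median array. Skeletal muscle genes did so in wild-type replicate 4 and peretinoin replicate 1 of week 48 and peretinoin replicates 3 and 5 of week 20, pancreas genes in transgenic replicate 5 of week 20, and both in transgenic replicate 4 of week 48. Without these 6 arrays the counts below moved by at most 2 members. RNA integrity was read from Actb, as its 3′ signal over its 5′ signal. This ratio was 1.25 to 2.16 in the other groups but 1.70 to 3.31 in peretinoin-fed livers at week 20. It also differed between the ages. In wild-type liver it was 1.81 to 2.16 at week 20 and 1.39 to 1.71 at week 48. In transgenic liver it was 1.62 to 1.74 and 1.30 to 1.57, so that the ages did not overlap in either. Pdgfc itself changed by -0.10 ± 0.20 with the transgene at week 20 (limma adjusted p = 0.757) and rose by 0.65 ± 0.21 at week 48 (adjusted p = 0.0272). Whether its probe set reads the transgene is not given in the sources used here, so this checks no label.

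Across the 7 groups the mean over the members was lowest in old wild-type liver and highest in tumours. Of the 48 tested members, 28 had their lowest group mean in wild-type liver at week 48, and 24 their highest in tumours. How many of all genes do so was not counted, so these 2 counts describe the members alone. The mean over the 48 members of an array, on the log2(signal + 16) scale used for all changes, ran from 8.16 to 8.43 in week 20 wild type and from 7.90 to 8.11 in week 48 wild type. It was 8.28 to 8.49 in transgenic liver at week 20, 8.26 to 8.69 at week 48 and 8.43 to 9.15 in tumours. The 4 old wild-type livers lay below all other arrays of every group. Peretinoin-fed livers were the most uneven, at 8.21 to 8.94 (SD 0.31) at week 20 and 8.11 to 9.03 (SD 0.35) at week 48, against SDs of 0.28 in tumours, 0.17 in transgenic liver at week 48 and 0.08 at week 20. In these bulk samples fewer cells of a type and less RNA per cell cannot be told apart.

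**Figure D2:**
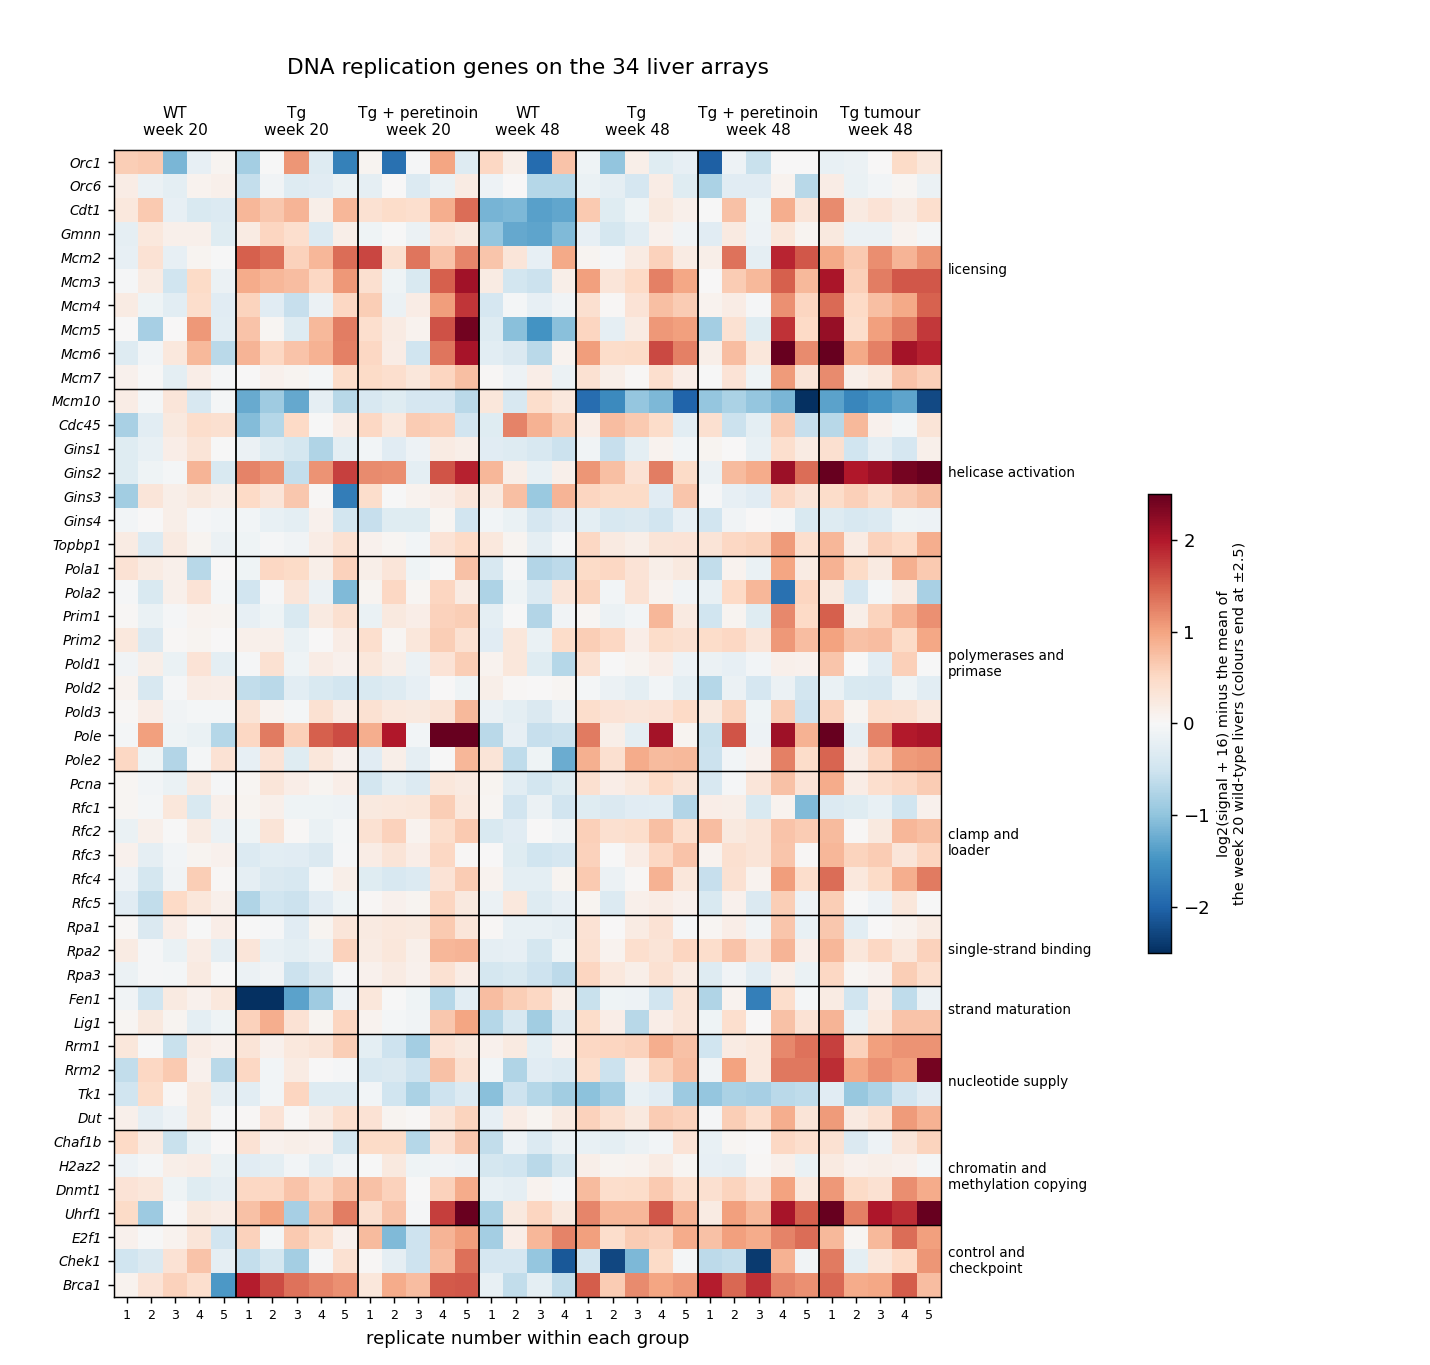
Each row is 1 of the 48 tested members, grouped by role, and each column 1 of the 34 arrays. Colour gives log2(signal + 16) minus the mean of the week 20 wild-type livers, red higher and blue lower. Cdt1 and Gmnn are blue in all 4 week 48 wild-type livers, Mcm10 is blue in every week 48 transgenic array, and Gins2 is red in all 5 tumours.

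**Figure D3:**
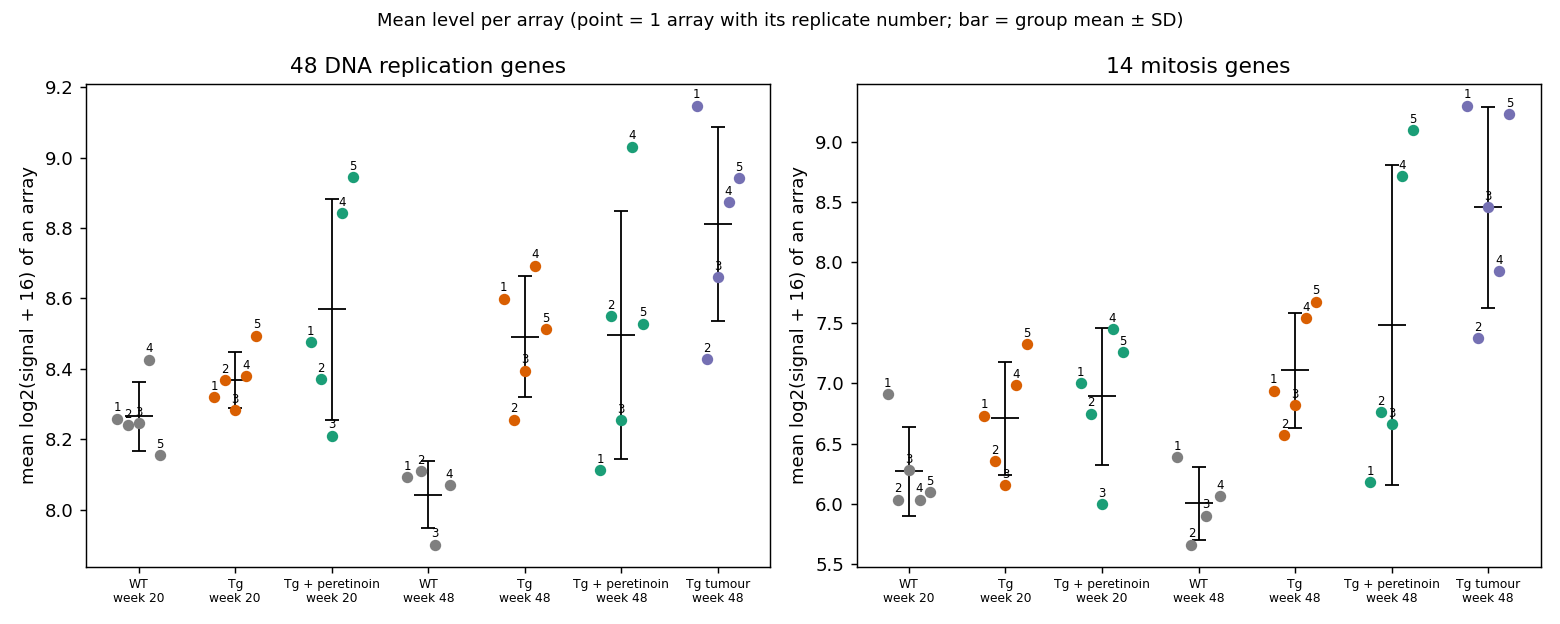
Mean log2(signal + 16) of each array over the 48 members (left) and over 14 mitosis genes (right). Points are arrays with their replicate number, bars group means ± SD. The members run from 7.90 in a week 48 wild-type liver to 9.15 in tumour 1, and the mitosis genes from 5.66 to 9.30.

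Gins2 and Mcm5 had the widest range of group means, with spans of 2.37 and 2.32 on the log2 scale. Gins2, a subunit of the GINS complex of the active helicase, read 21.3, 23.4, 29.3, 30.9 and 71.6 in wild-type liver at week 20 and 26.8, 37, 38 and 71.1 at week 48. Transgenic livers read 16, 89.5, 90.7, 98.9 and 143 at week 20 and 46.2, 51.7, 65.5, 88.3 and 102 at week 48. Tumours read 179, 199.6, 239, 268 and 313, above every liver on the basal diet. Peretinoin-fed livers spread widely, at 25, 92.7, 94.4, 129 and 168 at week 20 and 27.9, 68.1, 77.1, 112 and 198 at week 48. Mcm5, a subunit of the replicative helicase, read 121, 186, 227, 229 and 499.6 in wild-type liver at week 20 and 70.3, 101, 102 and 178 at week 48. Transgenic livers gave 178, 236, 380.0, 411 and 574 at week 20 and 192, 263, 337, 482 and 497 at week 48, and tumours 315, 481, 578, 809 and 1078. All transgenic livers and tumours of week 48 lay above the 4 wild-type livers of that age, while the groups overlapped at week 20. Peretinoin-fed livers again spread widely, at 242, 263, 307, 718 and 1278 at week 20 and 118, 182, 299, 327 and 832 at week 48.

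The transgene changed few members at week 20, the stage of fibrosis, and in both directions. Of the 48 members 4 rose (8.33%), against 15.8% of all genes tested, and 3 fell (6.25%), against 7.87% of all genes. The median change was 0.06 over the members and 0.06 over all genes. A member was called at a limma Benjamini-Hochberg adjusted p under 0.05 over all genes. Brca1, a tumour suppressor of homologous recombination, rose by 1.47 ± 0.28 on the log2 scale (adjusted p = 0.000252), from signals of 15.3, 74.2, 91.5, 97.5 and 110.4 to 171, 185, 201, 245 and 314. The 2 groups did not overlap, and peretinoin-fed livers read 87.3, 128, 146, 230.3 and 234. Of the 3 other probe sets of Brca1, 1 changed by 0.10 ± 0.19, and the remaining ones by 0.95 ± 0.37 and 1.60 ± 0.29. Mcm2 rose by 1.14 ± 0.29 (adjusted p = 0.00467), from 184, 184, 214, 224 and 279.5 to 327, 396, 585, 588 and 635, again without overlap. Its other probe set changed by 0.13 ± 0.37. Dnmt1, the maintenance DNA methyltransferase that acts behind the fork, rose by 0.60 ± 0.17 (adjusted p = 0.00882), and Cdt1 by 0.66 ± 0.23 (adjusted p = 0.0339).

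Fen1, the nuclease that trims the flaps of Okazaki fragments, was lower by -1.72 ± 0.40 on its brighter probe set (adjusted p = 0.00189). Wild-type livers of week 20 read 687, 924, 1061, 1149 and 1185, and transgenic livers 90.3, 107, 378, 521 and 904. The 2 lowest transgenic livers stood far below the rest, and the highest one lay among the wild-type values. The other Fen1 probe set gave 0.16 ± 0.24, so the 2 probe sets of the gene differed in sign. Pold2, an accessory subunit of polymerase delta, fell by 0.48 ± 0.12 on the log2 scale (adjusted p = 0.0024), from 541, 702, 768, 810.4 and 825 to 443, 465, 518, 547 and 601, with 1 wild-type liver among the transgenic values. Mcm10, which helps to fire the helicase, changed by -0.87 ± 0.28 (adjusted p = 0.0224). Groups of 4 members did not overlap, against 16.1% of all genes.

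The split of calls at week 20 rested on how arrays were scaled and which entered the fit. With quantile normalisation 2 members were higher and 8 lower, and with median centring 3 and 5, where 11.6% and 10.8% of all genes were higher. In a fit of the compared arrays alone 8 were higher and 3 lower, and 14.8% of all genes were higher. The calls of Cdt1 and of Mcm10 also rested on single arrays. Cdt1 was not called without wild-type replicate 3, 4 or 5 or without transgenic replicate 1, 2, 3 or 5 (0.57 to 0.66). Mcm10 was not called without wild-type replicate 3 or transgenic replicate 1 or 3 (-0.79 to -0.76).

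At week 48, the stage of tumours, the same comparison gave a one-sided change. The calls were 17 members higher (35.4%), against 14.2% of all genes, and 1 lower (2.08%), against 6.58%. The median change was 0.43 over the members and 0.04 over all genes, and 40 of the 48 were positive. The 2 groups did not overlap for 21 of the 48, against 21.4% of all genes. With median centring 18 members rose and 1 fell, and 17.1% of all genes rose. That scaling moved the median of all genes to 0.12. Wild-type replicate 3 had the lowest member mean of all arrays, and without it 10 members rose and 1 fell. Transgenic replicate 4, with muscle and pancreas transcripts, had the highest mean of its group, and without the 6 arrays of that kind 15 rose and 1 fell.

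Of 10 licensing genes 5 rose, and the median change of the group was 0.80. Gmnn, the inhibitor of relicensing, rose by 0.99 ± 0.16 (adjusted p = 2.34e-05), with wild-type signals of 338, 348, 399.5 and 438 and transgenic signals of 638, 727, 756, 815 and 937. Cdt1, the loader that geminin binds, rose by 1.37 ± 0.24 (adjusted p = 0.000118), from 153, 160.3, 180.0 and 184 to 339, 390.4, 463, 504 and 672. In both genes every transgenic liver lay above every wild-type liver. The helicase subunits Mcm5, Mcm6 and Mcm3 rose by 1.50 ± 0.47, 1.28 ± 0.42 and 0.97 ± 0.36, the last at an adjusted p of 0.0494. Their partners were not called: Mcm4 changed by 0.62, Mcm7 by 0.25 and Mcm2 by -0.22. Cdc6, which lay under the filter, gave 1.57 ± 0.45 in a fit with no filter (adjusted p = 0.0153), with wild-type signals of 1.6 to 19.6 and transgenic signals of 33.2 to 74.8.

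Of the fork components, 2 of 3 RPA genes, 3 of 6 clamp and loader genes and 3 of 9 polymerase and primase genes rose. Rpa3, the smallest RPA subunit, rose by 0.80 ± 0.12 (adjusted p = 1.48e-05), from 439, 488, 516 and 533 to 783, 814, 845, 919 and 1021. Rpa2 rose with it (0.60 ± 0.18), while Rpa1 changed by 0.33 ± 0.16 and was not called. Of the clamp and its loader, Rfc3 rose by 0.70 ± 0.15, Rfc2 by 0.71 ± 0.15 and Pcna by 0.57 ± 0.17. Among the polymerases Pole2 rose by 1.18 ± 0.32, Pola1 by 0.80 ± 0.24 and Pold3 by 0.61 ± 0.16, subunits of epsilon, alpha and delta. Pola1 was not called without wild-type replicate 3 (0.71). Without the 6 arrays that carried other tissues, Pole2 changed by 0.90 and was not called. Lig1, the ligase that seals Okazaki fragments, rose by 0.66 ± 0.24. None of the 4 nucleotide supply genes was called, and their changes lay between 0.13 (Tk1) and 0.64 (Rrm2). Neither was any of the other 6 helicase activation genes, from -0.25 for Cdc45 to 0.56 for Gins2. The widest errors among the members not called were those of Pole (1.17 ± 0.58), Orc1 (-0.16 ± 0.53) and Chek1 (0.28 ± 0.52).

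Of the 4 chromatin genes 2 rose. H2az2, a histone variant of the H2A.Z type, had the smallest p of all members in this comparison and rose by 0.62 ± 0.09 (adjusted p = 1.17e-05), from 2049, 2304, 2393 and 2413 to 3397, 3406, 3464, 3624 and 3747. Dnmt1 rose by 0.63 ± 0.18. Of the 3 control and checkpoint genes Brca1 rose, by 1.49 ± 0.30, from 39.4, 39.5, 55.9 and 58.8 to 116, 151, 164, 177 and 227. One other Brca1 probe set gave -0.36 ± 0.20, against 1.87 and 1.19 on the remaining 2.

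Mcm10 was the exception in direction. It fell by 1.67 ± 0.30 on the log2 scale (adjusted p = 0.000107). Wild-type livers read 4035, 6389, 6489.6 and 7241 and transgenic livers 1313, 1404, 1757, 2424 and 2703, with no overlap. At week 20 the wild-type values had been 4044, 5129, 5141, 6077 and 6520.1 and the transgenic ones 2189, 2211, 2879.7, 3282 and 4531. A dimmer Mcm10 probe set also read lower at week 48, by -0.92 ± 0.33, and the dimmest by -0.44 ± 0.39. The mean signal over all arrays was 3409 for the probe set that stands for Mcm10 and 62.5 and 21.3 for these 2, and which of them best reads Mcm10 RNA was not tested.

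**Figure D4:**
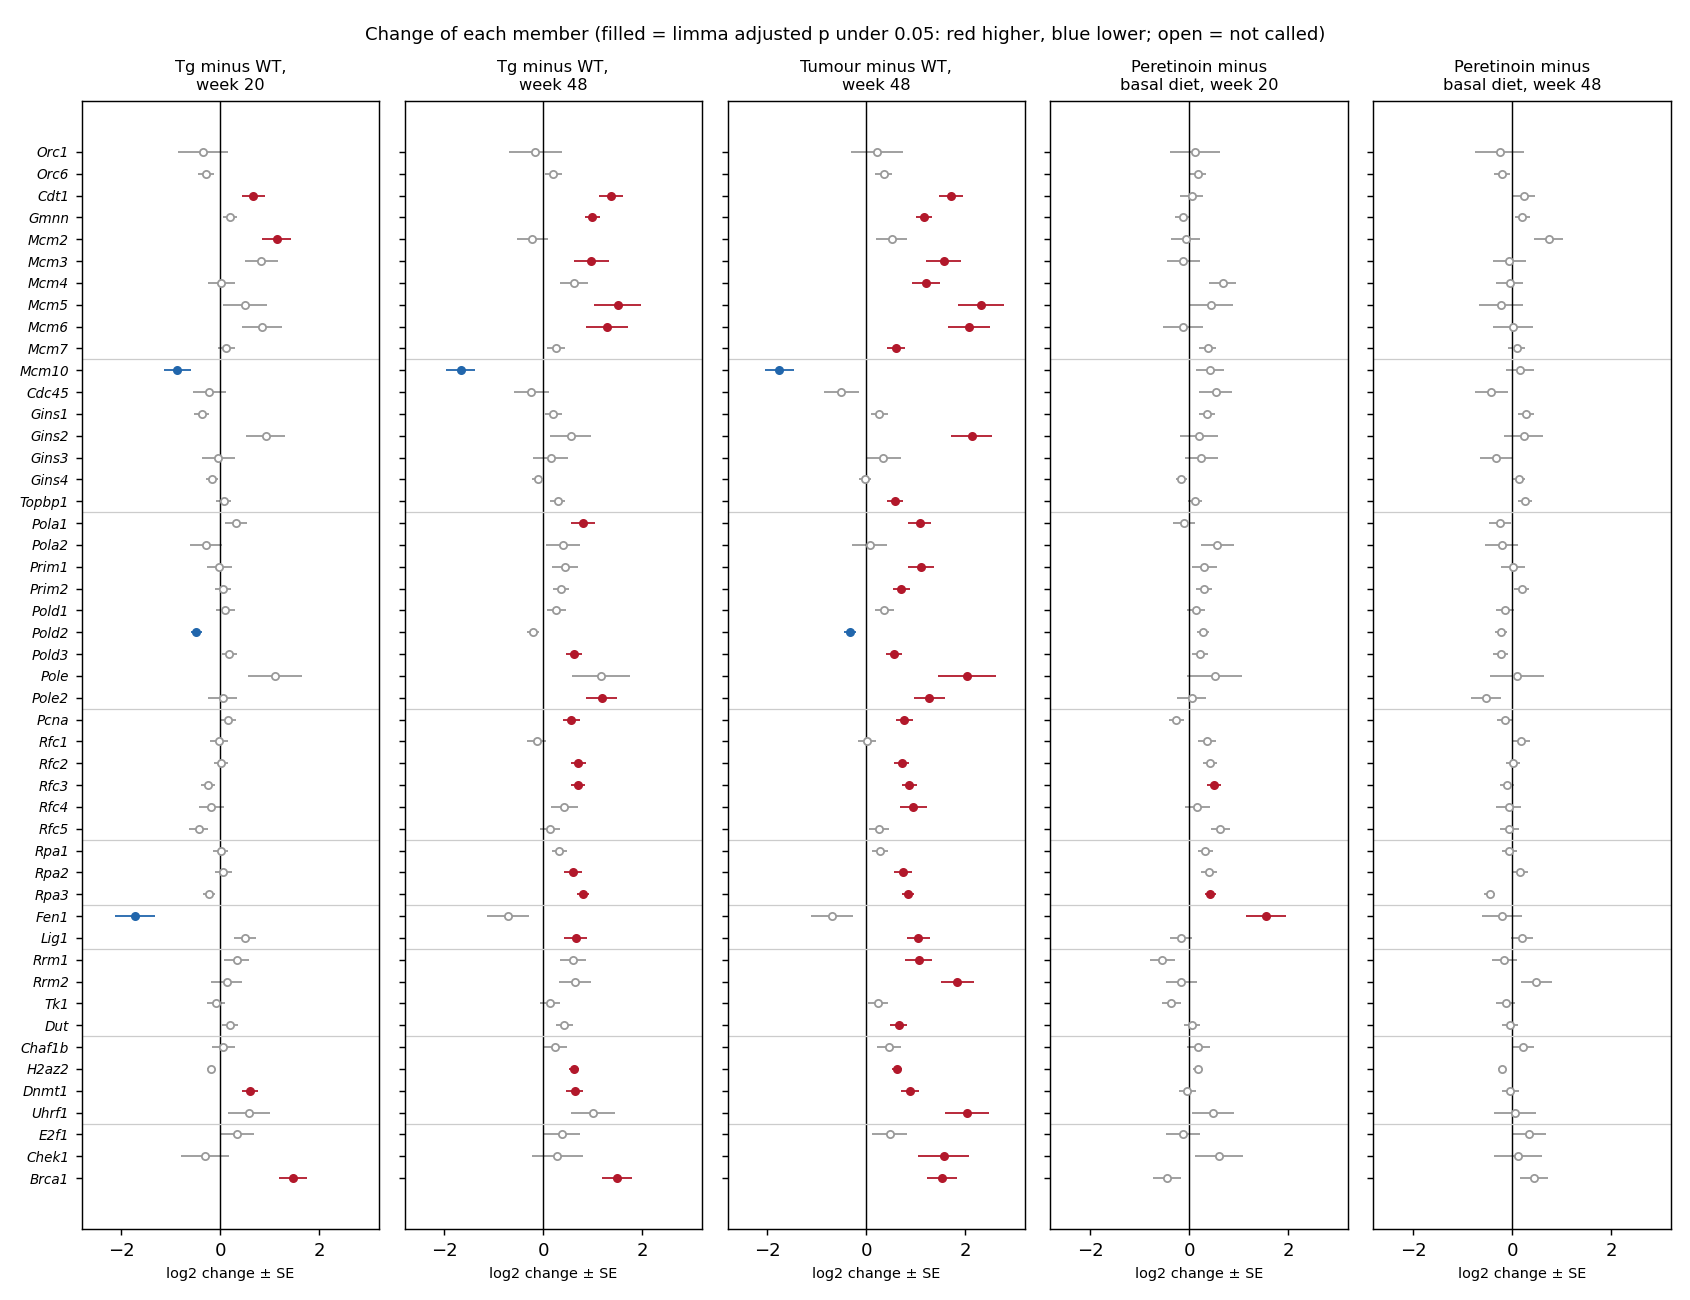
Log2 change ± SE of each of the 48 tested members in 5 comparisons, by role. Filled points passed a limma adjusted p under 0.05 (red higher, blue lower), open points did not. In all, 17 members are red for transgenic against wild-type liver at week 48 and 30 for tumours against wild type, while none is filled for peretinoin at week 48.

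Members with and without an E2F-type match can be set side by side at week 48, as a description. Of the 16 tested members with a match 10 rose, with a median change of 0.68. Of the 24 with a window and no match 5 rose and 1 fell, with a median of 0.35. Of all genes 14.2% rose and 6.58% fell. Tested members with no window, such as Gmnn and Rfc2, are in neither set. The order of the medians, with and without a match, was not the same in all comparisons. They were 0.97 and 0.49 for tumours against wild type, but 0.09 and 0.24 for age in transgenic liver and 0.12 and 0.24 for peretinoin at week 20. The 2 sets differ in G and C content and in role, and no test was made between them.

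Ageing in wild-type liver lowered a few members and raised none. Between week 20 and week 48, 5 members fell (10.4%), against 4.47% of all genes, and none was higher, against 2.41%. Gmnn fell by 1.17 ± 0.16 on the log2 scale (adjusted p = 4.45e-05), from 704, 746, 947, 958 and 1051 at week 20 to the 338 to 438 of week 48. H2az2 fell by 0.51 ± 0.09 (adjusted p = 0.00121), from 2894, 3001, 3169, 3614 and 3729.6. Cdt1 fell by 1.24 ± 0.24 (adjusted p = 0.00264), from 320.4, 329, 361, 511 and 669. In all of these the 4 old livers lay below all 5 young ones. Rpa3 fell by 0.50 ± 0.12 (adjusted p = 0.0133), from 637, 676, 689, 699.9 and 820.2, and Tk1, the salvage enzyme for thymidine, by 0.79 ± 0.20 (adjusted p = 0.0159). Rpa3 was not called without week 48 replicate 4 (-0.44), nor Tk1 without week 20 replicate 2 or week 48 replicate 1 (-0.70 to -0.67). In a fit of the wild-type arrays alone 3 members fell. The Actb ratio also differed between these ages, as given above, and its part was not tested.

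The 4 genes that fell with age and rose with the transgene at week 48 share the old wild-type livers as one side of both comparisons. Their levels in young transgenic liver do not share those arrays. Gmnn read 686, 972, 1013, 1169 and 1263 in transgenic liver at week 20 and Cdt1 465, 678, 757, 762 and 773. Those changes with age, -0.37 ± 0.15 for Gmnn and -0.54 ± 0.23 for Cdt1, were not called. H2az2 read 2679.9, 2744, 2750.2, 3083 and 3102 at week 20 and rose with age by 0.30 ± 0.09 (adjusted p = 0.0191). Rpa3 read 476, 543, 636, 661 and 692 and rose by 0.54 ± 0.12 (adjusted p = 0.00208). Geminin and Cdt1 were thus at levels in old transgenic liver that lay within or close to the range of young wild-type liver, whereas the 4 old wild-type livers lay below it.

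The change of the transgene effect between the ages was tested directly. The effect was larger at week 48 for 3 members (6.25%), against 0.137% of all genes, and smaller for none, against 0.137%. H2az2 differed by 0.81 ± 0.13 (adjusted p = 0.00488), Rpa3 by 1.03 ± 0.17 (adjusted p = 0.00488) and Rfc3 by 0.96 ± 0.20 (adjusted p = 0.0331). For H2az2 the transgene changed the level by -0.19 ± 0.09 at week 20 and 0.62 ± 0.09 at week 48, and for Rpa3 by -0.23 ± 0.12 and 0.80 ± 0.12. Rfc3, a subunit of the clamp loader, read 250, 280.1, 311, 317 and 318 in young and 203, 217, 236 and 297 in old wild-type liver, and 225, 228, 239, 241 and 289 in young and 292, 336, 430.3, 448 and 495 in old transgenic liver. The Rfc3 call held in only 5 of the 19 fits that left out 1 array: those without wild-type replicate 2 of week 20 or 1 of week 48, or transgenic replicate 5 of week 20 or 2 or 3 of week 48. In the other 14 its value was 0.88 to 0.98. The difference for Gmnn was 0.79 ± 0.21 and was not called (adjusted p = 0.116).

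**Figure D5:**
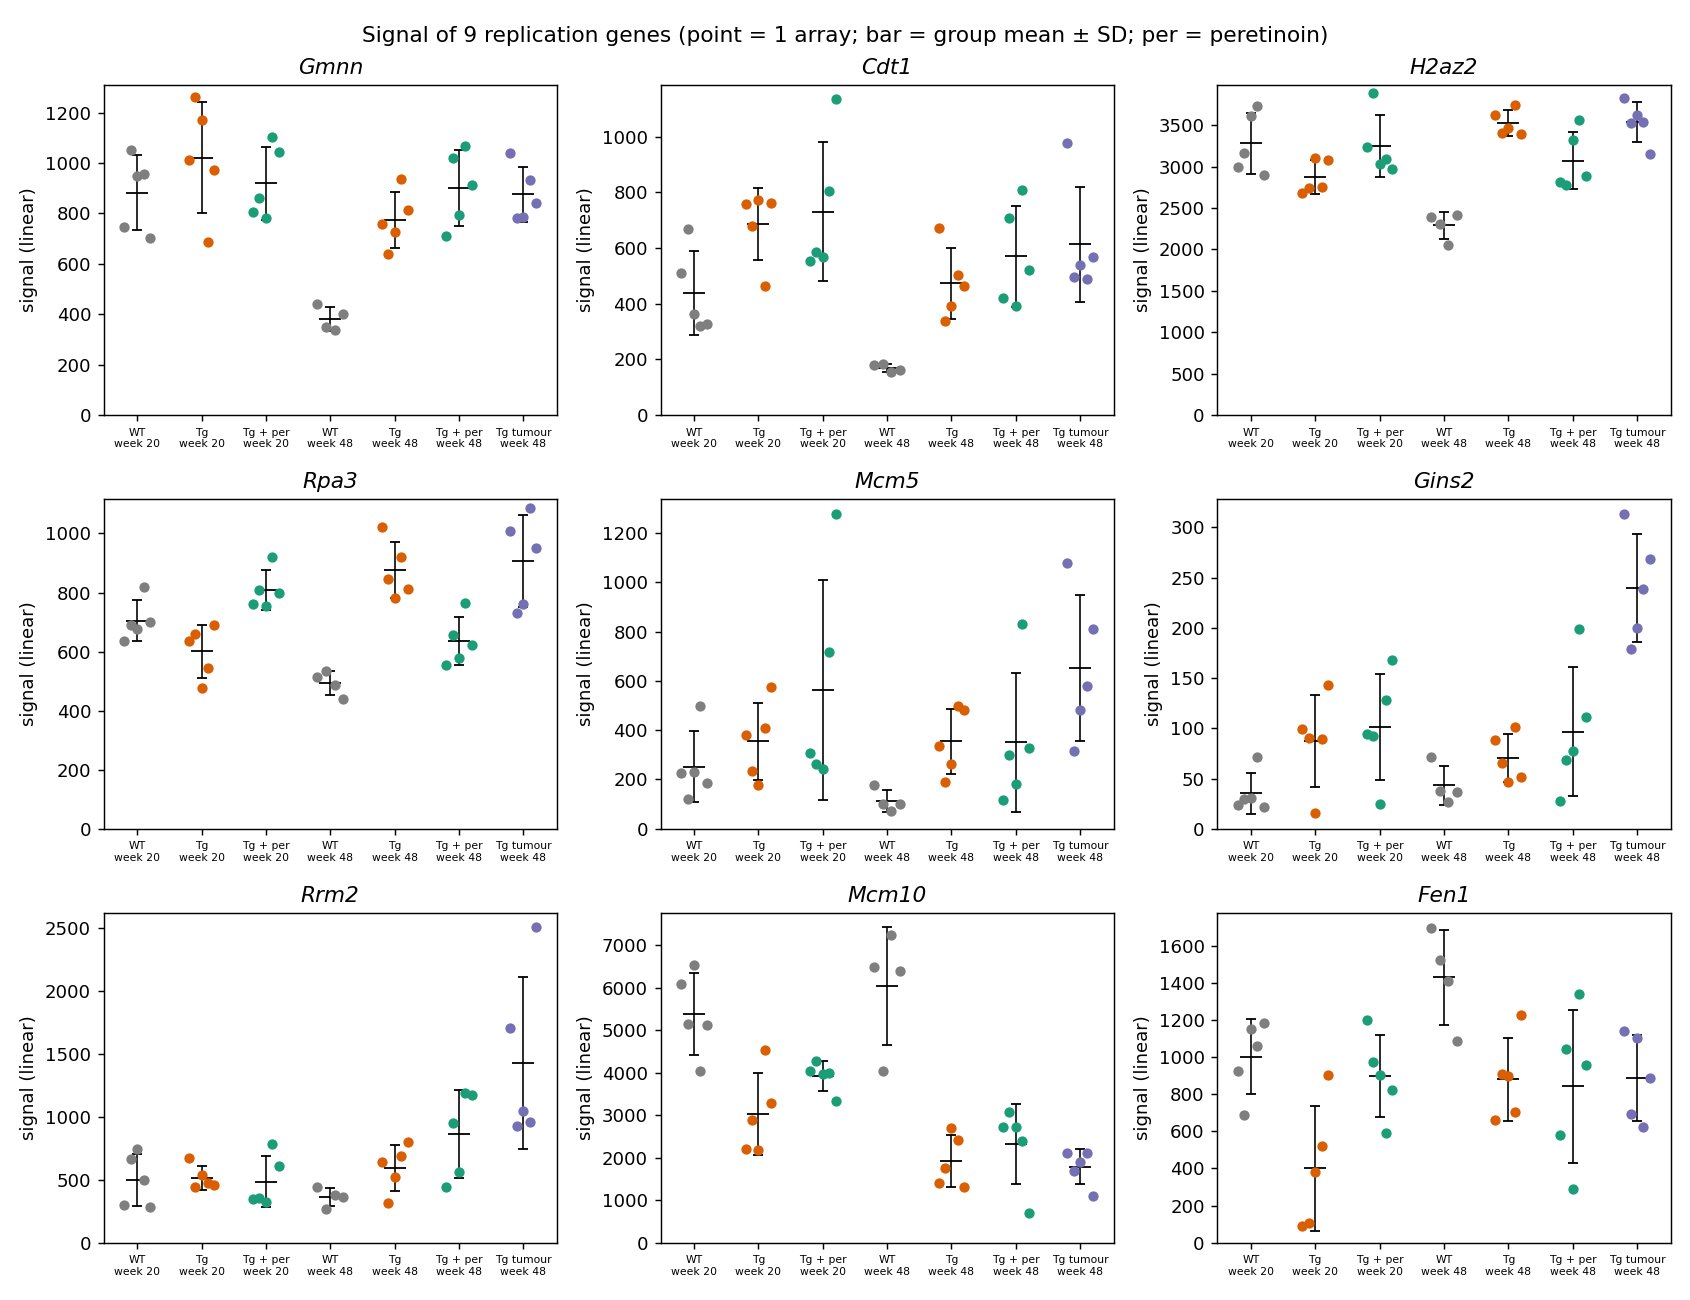
Linear signal of 9 members on each array, by group (points, arrays; bars, group mean ± SD). Gmnn, Cdt1, H2az2 and Rpa3 have their lowest group mean in week 48 wild type, Gins2 has its highest in tumours (179 to 313), Mcm10 is at most 2703 in transgenic liver at week 48, and Fen1 is lowest in 2 transgenic livers of week 20.

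Within transgenic liver, ageing raised some members and lowered Mcm2 and Tk1. With age 6 members rose (12.5%), against 5.99% of all genes, and 2 fell (4.17%), against 9.76%. Rfc3 rose by 0.66 ± 0.14 (adjusted p = 0.0019) and Rfc2 by 0.51 ± 0.14 (adjusted p = 0.0144), though the other 2 Rfc2 probe sets changed by 0.02 and -0.23. Fen1 rose by 1.53 ± 0.40 (adjusted p = 0.00863), from the low week 20 values given above to 661, 703, 898, 909 and 1225, and its other probe set changed by 0.16. Pold2 rose by 0.33 ± 0.12 (adjusted p = 0.0457). Mcm2 fell by 0.93 ± 0.29 (adjusted p = 0.0279), to 210.5, 224, 251, 252 and 329, whereas its other probe set changed by 0.47. Tk1 fell by 0.57 ± 0.19 (adjusted p = 0.0369), as in wild type. Mcm2, Tk1 and Pold2 were not called in 6, 5 and 8 of the 10 fits that left out 1 array (-0.93 to -0.84, -0.56 to -0.41 and 0.28 to 0.36), nor H2az2 without replicate 1 of week 20 (0.27). The count was 5 members without transgenic replicate 1 or 2 of week 20 or replicate 1, 2 or 5 of week 48. With median centring 7 rose and none fell, and 9.15% of all genes rose. Here too the Actb ratio differed between the ages, and its part was not tested.

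Tumours were set against both kinds of week 48 liver. Against transgenic liver no member was called, and neither was any gene (0% of all genes tested, in both directions). This comparison took the arrays as unpaired, though the labels do not say whether tumours and livers share mice. At an unadjusted p under 0.05, limma gave 10 of the 48 members and 1075 of all 13099 genes. The members' median change was 0.20, against 0.01 over all genes, and 42 of the 48 were positive. The 2 groups did not overlap for 3 members, against 1.98% of all genes. The smallest p belonged to Gins2, at 1.58 ± 0.39 (adjusted p = 0.217), from signals of 46.2, 51.7, 65.5, 88.3 and 102 to 179, 199.6, 239, 268 and 313. Rrm2, the regulated subunit of ribonucleotide reductase, followed at 1.20 ± 0.31 (adjusted p = 0.224), from 314, 525, 639, 688 and 801 to 926, 963, 1046, 1706 and 2513. In both genes the 5 tumours lay above the 5 transgenic livers. By role, all 10 licensing genes and all 6 clamp and loader genes were positive, with medians of 0.48 and 0.16, and 1 of 3 RPA genes was negative. The tumours were uneven, with a member mean of 9.15 in tumour 1 and 8.43 in tumour 2.

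Against wild-type liver of the same age, tumours held more of most members. The calls were 30 members higher (62.5%), against 17.9% of all genes, and 2 lower (4.17%), against 9.21%. The median change was 0.71 over the members and 0.03 over all genes. The 2 groups did not overlap for 27 members, against 23.6% of all genes. By role, 7 of 10 licensing genes, 6 of 9 polymerase and primase genes, 4 of 6 clamp and loader genes and 3 of 4 nucleotide supply genes rose. Gmnn rose by 1.17 ± 0.16 (adjusted p = 1.48e-06), to 782, 784, 839, 932 and 1040.0, and Cdt1 by 1.72 ± 0.24 (adjusted p = 3.6e-06), to 488, 495, 539, 566 and 978. Both stood above all 4 wild-type livers in every tumour. The largest rises among the 12 members of smallest p were those of Mcm5 (2.32 ± 0.47), Gins2 (2.14 ± 0.41), Mcm6 (2.07 ± 0.42) and Rrm2 (1.84 ± 0.33). Brca1, Dnmt1, Rfc3, Rpa3 and H2az2 rose by 1.53, 0.89, 0.87, 0.84 and 0.62. The other Brca1 probe sets that passed the filter did not all share its sign. Beyond these 12, Uhrf1, which brings Dnmt1 to replicated DNA, rose by 2.04 ± 0.45 and Pole, the catalytic subunit of polymerase epsilon, by 2.04 ± 0.58. Pole is dim, with a mean signal of 60.3 against 52.5 at the filter. It read 5.1, 6.6, 7.3 and 13.2 in wild-type liver and 12.9, 63.4, 116.2, 122.4 and 200.4 in tumours, with overlap. The checkpoint kinase Chek1 rose by 1.56 ± 0.52 and the primase subunit Prim1 by 1.11 ± 0.27. Members not called lay between -0.70 for Fen1 and 0.51 for Mcm2. Mcm10 fell by 1.75 ± 0.30 (adjusted p = 3.82e-05), to 1106, 1696, 1899.9, 2104 and 2113, and Pold2 by 0.32 ± 0.12 (adjusted p = 0.0468). These comparisons share the wild-type livers with those of the transgene at week 48. With median centring 30 rose and 1 fell, and 20.4% of all genes rose.

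Other cell cycle genes are given for comparison. Of 44 tested replication genes outside the list, 3 rose and 1 fell with the transgene at week 20, and 5 rose and 1 fell at week 48, smaller shares than the 15.8% and 14.2% of all genes that rose. Against wild-type liver, 12 rose and 2 fell in tumours, where 17.9% of all genes rose, and their median was 0.26. Dck, a deoxynucleoside kinase, rose by 1.08 ± 0.20 at week 48 and by 1.38 ± 0.20 in tumours, and Ccna2, cyclin A2, by 2.31 ± 0.40 in tumours. Mitosis genes had larger median changes. Of 20 mitosis genes listed, 14 passed the filter. The filter used the mean signal over all 34 arrays, tumours included, so a gene could pass through high tumour signals. This holds for the members and the other replication genes as well. Of the 14 mitosis genes tested, 4 rose with the transgene at week 48 (median 1.04), and 13 rose in tumours against wild-type liver (median 2.38). Cdk1, the mitotic kinase, rose by 3.82 ± 0.47 and Mki67, a marker of cycling cells, by 3.51 ± 0.53 in tumours. Against transgenic liver all 14 were positive in tumours with a median of 1.36, and none was called. The mean of the mitosis genes was highest in tumours 1 and 5, at 9.30 and 9.23, and in peretinoin-fed replicates 4 and 5 of week 48, at 8.71 and 9.09.

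Cell type markers moved with the transgene as well. Calls count the markers that passed the filter. The sums take in every listed marker with a probe set of its own symbol, also those under the filter. A sum follows the brightest markers, so it can differ from the mean log2 of the same markers. Of 8 markers of stellate cells and myofibroblasts, which divide and lay down matrix in fibrotic liver, 5 rose at week 20 and 6 at week 48. Their summed signal at week 20 was 1973 to 4384 without the transgene and 17397 to 21317 with it. At week 48 it was 2872 to 6804 in wild-type liver, 10666 to 17269 in transgenic liver and 11001 to 18134 in tumours. Of 5 T and NK cell markers 3 rose at each age, and their sums were 265 to 501 without and 476 to 962 with the transgene at week 20, and 333 to 595 and 570.3 to 1117 at week 48. Of 5 B and plasma cell markers 2 rose at each age, with sums of 718 to 1374 and 1451 to 2749 at week 20, and 819 to 3170.3 and 1730 to 11421 at week 48, in the same order. Of 4 neutrophil markers 1 rose at week 20 and 2 at week 48, with sums of 506 to 2347 and 2263 to 7211 at week 20, and 323 to 2058 and 1737 to 18908 at week 48. Of 6 macrophage markers 1 rose and 2 fell at week 20, and 2 rose and 1 fell at week 48, with sums of 10701 to 15321 and 11170 to 13601 at week 20, and 7239 to 14664 and 13302 to 27896 at week 48. Of 7 hepatocyte markers 2 fell at week 20 and 4 at week 48. Endothelial sums at week 20 were 4143 to 6418 without and 3514 to 3860 with the transgene. At week 48 they were 5372 to 6250 and 2910 to 5213. The mean log2 of the endothelial markers overlapped at both ages. It was 8.87 to 9.62 without and 9.06 to 9.22 with the transgene at week 20, and 9.20 to 9.32 and 8.94 to 9.53 at week 48. Erythroid sums were 2697 to 4241 and 981 to 3328.5 at week 20. At week 48 they were 3409 to 4297 and 1458 to 3014, while the mean log2 of these markers overlapped (6.72 to 7.35 and 6.39 to 7.01). Bile duct sums were 299 to 465 and 357 to 545 at week 20, and 525 to 678 and 479 to 1160 at week 48. Of the endothelial markers only Clec4g was called at week 20 (-1.90 ± 0.42), and none was called at week 48. No marker was listed at 0, since every deposited value was positive. The part of these cells in the members' changes was not tested.

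Peretinoin was compared with the basal diet in transgenic mice. At week 20, 3 members rose (6.25%), against 1.64% of all genes, and none fell, against 1.24%. Fen1 rose by 1.56 ± 0.40 (adjusted p = 0.0293), with 591, 822, 905, 974 and 1200.3 in fed livers, which overlap the basal diet's 90.3 to 904. Its other probe set changed by -0.13 ± 0.24. Rpa3 rose by 0.43 ± 0.12 (adjusted p = 0.0395), with 753, 762, 799, 808 and 922 in fed livers, all above the basal diet. Rfc3 rose by 0.50 ± 0.14 (adjusted p = 0.0434), with 302, 333, 336, 372 and 428, also without overlap. No member was called without transgenic replicate 1, 2 or 3 or peretinoin replicate 1, 2 or 3, and 1 without replicate 4 of either group. In these fits Fen1 was 1.18 to 1.65, Rpa3 0.35 to 0.46 and Rfc3 0.44 to 0.52 where they were not called. One was called with median centring and 5 with quantile normalisation. The Actb ratio was higher in these fed livers, as given above, whose part was not tested.

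At week 48 no member was called with peretinoin by limma, against 0.725% of all genes in both directions. At an unadjusted p under 0.05, 3 of the 48 members and 1835 of all 13099 genes passed. Rpa3 had the smallest p, at -0.45 ± 0.12 (adjusted p = 0.0544), with 556, 579.5, 623, 657 and 765 in fed livers below all 5 livers of the basal diet. Without peretinoin replicate 4 it was called (-0.52, adjusted p = 0.0237). Mcm2 changed by 0.74 ± 0.29 (adjusted p = 0.24), with 181, 239.5, 574, 664 and 842 in fed livers. Its high values came from 3 of the 5 livers, and its other probe set changed by -0.01. The members' median change was -0.04, against -0.02 over all genes.

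Rpa3 was also the 1 member whose response to peretinoin differed between the ages. The difference was -0.88 ± 0.16 (adjusted p = 0.0135), against 0.374% of all genes lower and 0.305% higher. Without transgenic replicate 5 of week 20, 2 members were called. Pold2 came next at -0.51 ± 0.16 (adjusted p = 0.131), with signals of 551, 570.5, 627, 667 and 731 in fed livers at week 20 and 436, 521, 537, 646 and 654 at week 48. Both diets share the arrays already described, so this test is not independent of the 2 comparisons above.

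In fed livers 3 members fell with age (6.25%), against 8.57% of all genes, and none rose, against 4.89%. Mcm10 fell by 0.91 ± 0.28 (adjusted p = 0.0271), from 3340.5, 3971, 3991, 4044 and 4283 to 695, 2384, 2718, 2728 and 3073. Rfc1, the large subunit of the clamp loader, fell by 0.55 ± 0.18 (adjusted p = 0.0355), from 432, 439, 440.3, 448 and 562 to 161, 276, 386, 405 and 411, whereas its other probe sets changed by 0.15 and 0.84. Rpa3 fell by 0.34 ± 0.12 (adjusted p = 0.0443). In both Mcm10 and Rfc1 replicate 5 of week 48 gave the lowest value. These counts rested on scaling and on single arrays. With median centring 6 members rose and none fell, as did 14.5% of all genes, and the median of all genes moved to 0.16. Leaving out 1 array at a time, Mcm10 was not called in 4 of 10 fits (-0.91 to -0.52), Rfc1 in 6 (-0.57 to -0.33) and Rpa3 in 9 (-0.37 to -0.30). No member was called without replicate 1 or 3 of week 20 or replicate 5 of week 48. One was called without replicate 2 of week 20 or 3 of week 48, 5 without replicate 5 of week 20 (3 higher) and 6 without replicate 1 of week 48 (4 higher).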

How the data were processed

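RNA of 34 mouse liver samples was measured on Affymetrix mouse arrays, 1 array per sample. RNeasy columns and biotin labelling of cRNA were used, per the labels' protocols. The files hold linear signal intensities as the authors deposited them, computed by MAS5 (version not given in the sources used here) according to the submitters' processing notes. The 2% trimmed mean of every array was 500.003 to 500.004, so a global shift between groups cannot be seen. The number of arrays limits the precision.

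Tests used log2(signal + 16). Of 45101 probe sets, 64 controls were left out and the 60% of highest mean signal kept. The probe set of highest mean with exactly 1 symbol stood for a gene. Of the probe sets, 34945 had 1 symbol, 932 several and 9160 none listed. The 7 group means entered 1 linear model (limma 3.58.1, R 4.3.3, eBayes with an intensity trend), from which 11 comparisons were drawn. Tests were two-sided, with Benjamini-Hochberg adjustment over all genes, and errors of changes are moderated standard errors. A fold change on this scale understates the change of dim genes, and levels of different genes were not compared.

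The members and lists were chosen with earlier results of these data known. Every called member was named where 12 or fewer were called, otherwise the 12 of smallest p; further members are given where they complete a role group. Every array's value is given for the 2 members of smallest p in each comparison and the 2 of widest range. Promoters came from RefSeq windows and were printed for the 6 members with a match and the smallest p, with at most 30 bases from beyond the start site in each. The scripts were tested on simulated arrays. Alternatives covered the offset, scaling, filter, probe set choice, arrays in the fit, a replicate block and each array left out.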

Additional observations from a re-analysis of the deposited data

Results flagged for a closer look

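In 105 groups of 4 or 5 values (14 members described array by array, and the member mean, in 7 groups), 8 held an array far from the others by Dixon's test. Chance flags about 1 in 20 such groups. Wild-type replicate 4 of week 20 was high for Gins2, at 71.6 against 30.9 for the next array, and for Mcm5, at 499.6 against 229. Tumour 1 was high for Cdt1, at 978.5 against 566. Peretinoin-fed replicate 2 of week 20 was high for H2az2, at 3895 against 3235, and replicate 4 for Rfc1, at 561.5 against 448. Transgenic replicate 5 of week 20, which carried pancreas transcripts, was high for Rfc3, at 289 against 241. Transgenic replicate 5 of week 48 was low for Rfc1, at 213 against 279. Peretinoin-fed replicate 5 of week 48 was low for Mcm10, at 695 against 2384, and none of the 3 calls for age in fed livers (Mcm10, Rfc1 and Rpa3) was made without this array.

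By the test of the difference itself, 4 effects differed between the ages. The transgene effect was larger at week 48 by 0.81 for H2az2, 1.03 for Rpa3 and 0.96 for Rfc3 on the log2 scale. The Rfc3 call was lost in 14 of 19 fits that left out 1 array. It was also lost with no filter, with the compared arrays alone and without the arrays that carried other tissues. The peretinoin effect on Rpa3 was lower at week 48 by -0.88.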

How the results depend on the processing

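With quantile normalisation 5 members were called for peretinoin at week 20, and with median centring, no filter, averaged probe sets or the compared arrays alone 1. For peretinoin at week 48, 1 was called with an offset of 64, the upper 40% of probe sets, averaged probe sets or the replicate block. For age in fed livers the counts were 6 with median centring and 0 with the compared arrays alone. That fit gave 11 (8 higher) for the transgene at week 20 and 3 for age in wild type, and averaged probe sets gave 5 for age in transgenic liver. Leaving out 1 array gave 5 to 8 members for the transgene at week 20 and 11 to 18 at week 48, 0 for tumours against transgenic liver and 29 to 32 against wild type, 0 to 4 and 0 to 1 for peretinoin at week 20 and 48, 4 to 5, 5 to 9 and 0 to 6 for age in wild type, transgenic and fed liver, and 2 to 3 and 1 to 2 for the differences between ages. Averaged probe sets turned Rfc1 for age in fed liver to 0.15. Without probe sets of the _s or _x suffix, an alternative chosen after seeing the data, Fen1 turned to 0.16 for the transgene at week 20 and -0.13 for peretinoin at week 20, and Mcm2 to -0.0113 for peretinoin at week 48 and 0.47 for age in transgenic liver. These reversals follow from another probe set standing for the gene; the cause of the other changes was not tested. Among 99 pairs of arrays with the same replicate number the correlation of deviations had a median of 0.036 (-0.206 to 0.432). Pairs with unlike numbers were not computed, so these values cannot tell whether the numbers pair the arrays. For transgenic liver and tumour, whose labels do not say whether they share mice, the correlation was 0.077 to 0.290, with 1 of 5 under 0.1. The replicate block, fitted over all 7 groups, called 0 members there. That block does not test a pairing of these 2 groups alone. The replicate block changed the count of peretinoin at week 48 to 1 and no other by over 1.5 times. Pole, Orc1 and Chek1 have the widest standard errors for the transgene at week 48.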
